A study of Mus musculus with 24 samples.

Results

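Pirfenidone given together with perconditioning was set against perconditioning alone in the lungs of mice that breathed diesel exhaust. The comparison holds 6 of the 24 libraries of the series, chosen by their labels: 3 of the DE+PFD+RIC group and 3 of the DE+RIC group. All were male C57BL/6 mice, 20 weeks old, exposed to exhaust for 30 min a day on 5 days a week over about 8 weeks. All 6 also had remote ischemic conditioning, in which the blood flow to the left leg was stopped for 5 min and restored for 5 min in 3 cycles, on 3 days a week for 4 weeks, during the exposure (perconditioning). DE+PFD+RIC mice in addition took pirfenidone by mouth, 300 mg/kg a day on 6 days a week, in 0.5% carboxymethylcellulose. No group of the series is labelled as given carboxymethylcellulose alone, so the drug and its vehicle cannot be told apart. Each library is poly(A) RNA of whole lung tissue, read as counts per gene. The series as a whole asks whether conditioning changes exhaust-induced lung fibrosis, and its 8 groups of 3 also include DE+PFD and DE, which serve below as the same drug comparison without conditioning.

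Pirfenidone is an antifibrotic drug for lung fibrosis that lowers collagen synthesis and the output of transforming growth factor beta (TGF-beta) and of inflammatory cytokines in fibroblasts and macrophages. In lung fibrosis, TGF-beta held latent in the matrix is released, signals through SMAD proteins and drives fibroblasts to make collagen and fibronectin. A second route runs through interleukin-4 and interleukin-13, which act through the transcription factor STAT6 on macrophages and airway cells and induce secreted proteins such as RELM-alpha, the product of Retnla.

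No gene passed the test between DE+PFD+RIC and DE+RIC. Of 17490 genes tested, edgeR's quasi-likelihood test with Benjamini-Hochberg adjustment called 0 (0%) at an adjusted p under 0.05. Unadjusted p-values were under 0.05 for 862 genes, of which 487 were higher (2.78%) and 375 lower (2.14%) in DE+PFD+RIC. DESeq2 called 2 genes, Retnla lower and an identifier without a symbol higher, and limma called 0. The 3 libraries of each group did not overlap for 1981 genes that were higher (11.3%) and 1527 that were lower (8.73%) in DE+PFD+RIC. In simulated counts with the same design, the test found 68.2% of genes changed 4-fold, 4.48% of those changed 2-fold and 0% of those changed 1.5-fold. The simulated counts held no batch differences, length trend or outlying libraries, so detection in the real libraries may be lower. Even in the simulation, 2-fold and 1.5-fold differences were mostly missed. The values below are descriptions unless a call is named.

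Total counts were 12384143, 14625860 and 7756027 in DE+PFD+RIC libraries 1 to 3, and 11271432, 7296425 and 18494156 in DE+RIC libraries 1 to 3. The labels date DE+PFD+RIC 1 and 2 to a March batch, DE+PFD+RIC 3 and DE+RIC 1 and 2 to October, and DE+RIC 3 to November, without saying what was done on those dates. The model holds a term for batch, and because DE+RIC 3 is the single November library of the series, that term takes it out of the fold changes. A fold change is the log2 ratio of DE+PFD+RIC over DE+RIC from this model, with its standard error (SE). Levels are counts relative to the TMM-scaled size of the library (CPM), not adjusted for batch. Values within October rest on DE+PFD+RIC 3 against DE+RIC 1 and 2, and their p-values assume that the lone library varies like those of the other groups. Nothing in the labels says how the 3 libraries of a group were collected apart, so p-values measure the spread between these samples. By principal components RIC+DE+PFD 1, DE 1 and RIC+DE 1 stood apart from the other libraries. RIC+DE 1, at -62.2 on component 1 and 41.3 on component 2, was not left out singly. RIC+DE+PFD 1 enters the fold changes through the batch term, and it and DE 1 enter the test through the shared spread. With RIC+DE+PFD 1 and DE 1 left out, 0 genes were called. Some list medians moved without them, and the larger moves are given beside the lists below.

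Fold changes also followed gene length. Across 16269 genes with a known exon length, Spearman's rho between fold change and length was 0.395, with genes not independent of each other. Of 4 equal bins of genes by length, the shortest had a median log2 fold change of -0.30 with 28.3% of genes above 0, and the longest had 0.20 with 74.6% above 0. Within October the same medians were -0.30 and 0.15. In single libraries, rho between a gene's level relative to all 24 libraries and its length was 0.19, 0.46 and 0.29 in DE+PFD+RIC, against -0.20, -0.15 and 0.10 in DE+RIC. The part of this trend in the results below was not tested. Medians and fold changes after its removal stand beside some, not all, of the lists and genes that are mostly long or short.

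**Figure D1:**
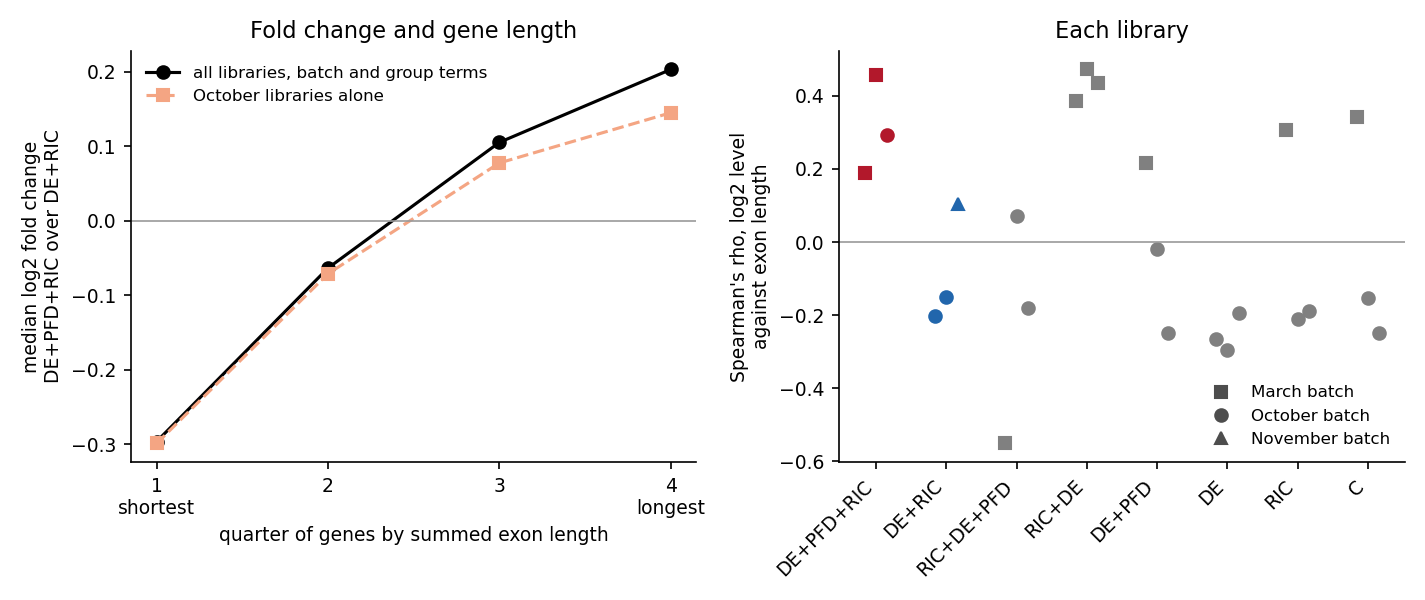
Left, the median log2 fold change of DE+PFD+RIC over DE+RIC in 4 equal bins of genes by summed exon length, in the model of all libraries and within October. Right, Spearman's rho of log2 level against exon length in each of the 24 libraries by group, with marker shape for batch; the 3 DE+PFD+RIC libraries lie above the 3 DE+RIC libraries.

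Retnla (ENSMUSG00000061100), which codes for RELM-alpha, a small secreted protein of macrophages and airway epithelium in type 2 responses, had the smallest p of all genes. Its level was 49.5, 59.5 and 25.1 CPM in DE+PFD+RIC, against 109, 163 and 84.8 CPM in DE+RIC. The groups did not overlap. The log2 fold change was -2.39 ± 0.46 (SE), with an unadjusted p of 5.11e-05 and an adjusted p of 0.750 in edgeR's quasi-likelihood test, and DESeq2 called it at an adjusted p of 0.015. Without the batch term the fold change was -1.40, with the November library counted as October -2.20, and within October -2.44. Retnla is short, with 599 exon bases, and stood at -1.94 after removal of the length trend.

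The promoter windows of Retnla and of Retnlg, a neighbouring paralog in the same gene family, are shown because Retnla is the gene with a symbol that DESeq2 called and because STAT6 is its known inducer. Both are RefSeq windows of build GRCm38.p6 from 250 bases before to 50 bases after the gene start, on the plus strand, at chr16:48842359-48842658 for Retnla and chr16:48872358-48872657 for Retnlg. Capitals mark the pattern TTCNNNNGAA, the spacing that STAT6 prefers, which reads the same on both strands.
Retnla: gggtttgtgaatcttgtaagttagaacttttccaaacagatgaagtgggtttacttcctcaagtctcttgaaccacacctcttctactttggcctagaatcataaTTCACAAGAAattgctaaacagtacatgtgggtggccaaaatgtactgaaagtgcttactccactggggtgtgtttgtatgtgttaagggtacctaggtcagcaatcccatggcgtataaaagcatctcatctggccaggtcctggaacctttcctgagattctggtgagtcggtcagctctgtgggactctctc
Retnlg: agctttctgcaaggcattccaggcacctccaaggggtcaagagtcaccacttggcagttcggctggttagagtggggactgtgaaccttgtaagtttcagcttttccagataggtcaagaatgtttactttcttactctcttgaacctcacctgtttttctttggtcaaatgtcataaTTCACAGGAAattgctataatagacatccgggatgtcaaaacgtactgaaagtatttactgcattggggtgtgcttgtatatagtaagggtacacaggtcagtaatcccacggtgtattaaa
Each window held 1 match, starting 145 bases before the start of Retnla and 72 bases before that of Retnlg. The pattern occurs in 6.95% of the 32851 windows of 300 bases in the same table. A match is a stretch of letters, and binding was not measured.

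Among the 8 groups, Retnla had its highest mean in DE+RIC. Mean levels were 44.7 ± 17.7 CPM in DE+PFD+RIC and 119 ± 39.9 CPM in DE+RIC (SD, n = 3 each). They were 67.2 ± 1.89 CPM in DE+PFD and 49.9 ± 6.62 CPM in DE, and 54.6 ± 16.6 CPM in control mice (C). RIC, conditioning without exhaust, ranged from 31.1 to 157 CPM, RIC+DE+PFD from 36.4 to 128 CPM and RIC+DE from 21.4 to 66.1 CPM. The DE+RIC libraries lay above those of DE+PFD, DE, RIC+DE and C, and overlapped with RIC and RIC+DE+PFD, in each of which 1 March library was high. No test was run over these groups, since Retnla was singled out after its values were seen.

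**Figure D2:**
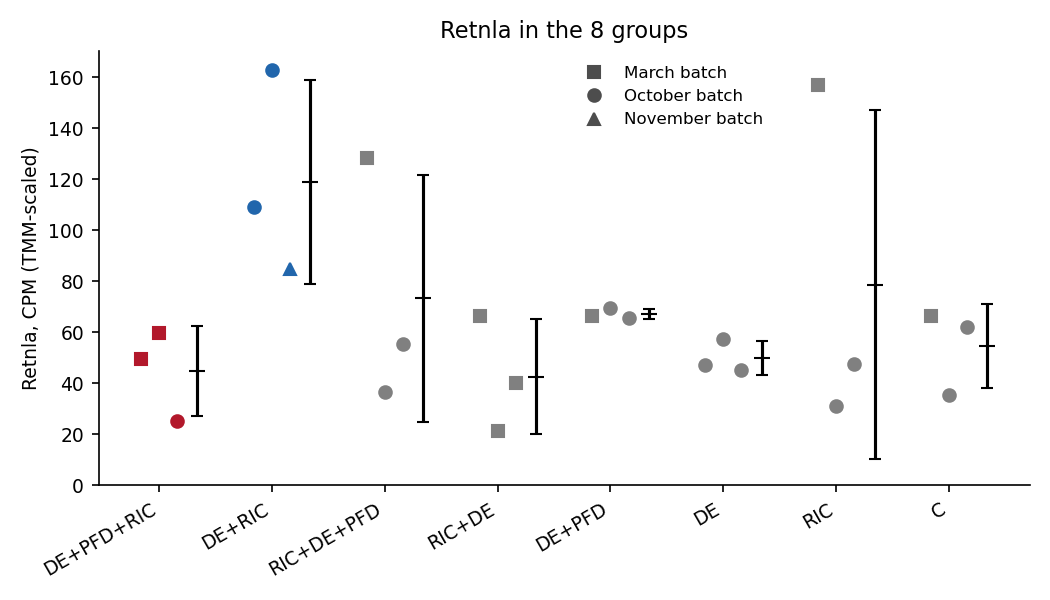
Retnla in CPM in the 3 libraries of each of the 8 groups, with marker shape for batch and a bar for mean and SD. The DE+RIC libraries sit at 84.8 to 163 CPM, above the 25.1 to 59.5 CPM of DE+PFD+RIC.

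Other genes of type 2 responses and of the same family differed less evenly across the libraries. Retnlg, mostly of neutrophils, had 7.76, 3.52 and 17.9 CPM in DE+PFD+RIC, against 15.3, 26.8 and 14.3 CPM in DE+RIC, and the groups overlapped. Clca1, a secreted protein of goblet cells, had 1.38, 0.629 and 0.24 CPM in DE+PFD+RIC, against 1.58, 120.2 and 2.23 CPM in DE+RIC. Chil4, a chitinase-like protein of the same kind of response, had 0.086, 0.063 and 0 CPM in DE+PFD+RIC, against 0.615, 5.59 and 0.208 CPM in DE+RIC. Clca1 and Chil4 were highest in DE+RIC library 2, the library with the most Retnla. Outside this comparison RIC 1 was also high, with 157 CPM of Retnla, 69.2 CPM of Clca1 and 3.2 CPM of Chil4. RIC+DE+PFD 1, with 128 CPM of Retnla, had 0.385 CPM of Clca1 and 0.257 CPM of Chil4. The fold change of Clca1, -7.05 ± 2.12, was -1.79 without DE+RIC library 2. Reads of Retnla and Retnlg, and of Chil4 and its close relatives, may be split between copies, and their counts carry that uncertainty.

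Among the 12 genes with a symbol that were higher without overlap and had the smallest p were Mex3d, Rybp, Tspan18, Rbm20, Ccdc85c, Ficd, Nap1l5, Acvr2b, Ccdc171, Cmklr1 and Hspg2. Cmklr1, the receptor for the chemoattractant chemerin, had 83.9, 114 and 101 CPM in DE+PFD+RIC, against 61.3, 41.8 and 64.9 CPM in DE+RIC. Its log2 fold change was 0.92 ± 0.30, and 0.95 within October. Acvr2b, a receptor for activins of the TGF-beta family, had 5.26, 8.87 and 7.81 CPM in DE+PFD+RIC, against 3.6, 2.94 and 4.68 CPM in DE+RIC. Rybp, a subunit of the Polycomb repressive complex, had 23.4, 23.6 and 21.1 CPM in DE+PFD+RIC, against 8.61, 5.17 and 16 CPM in DE+RIC. DE+RIC 3, the November library, was the nearest to DE+PFD+RIC for these 3 genes, and the log2 fold change of Rybp was 1.36 ± 0.38, or 0.82 with that library counted as October. Mex3d, an RNA-binding protein, had 27.6, 24.2 and 27.3 CPM in DE+PFD+RIC, against 16.8, 14.1 and 19.4 CPM in DE+RIC.

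The 12 on the lower side were Retnla, Chil4, Aurka, Pnliprp1, Bcl2l14, Trmt10a, Clca1, Capn11, Mdk, Myl12b, Clec4a2 and Sntg2. Clec4a2, an inhibitory C-type lectin receptor of dendritic cells and other myeloid cells, had 3.97, 2.58 and 3 CPM in DE+PFD+RIC, against 6.94, 6.99 and 6.49 CPM in DE+RIC. Its fold change of -1.22 ± 0.40 ranged from -1.35 to -1.08 over 19 other settings. Mdk, which codes for the heparin-binding growth factor midkine, had 8.88, 5.6 and 8.05 CPM in DE+PFD+RIC, against 13.6, 19.8 and 11 CPM in DE+RIC. Its fold change was -0.98 ± 0.30, and -0.64 after removal of the length trend. Aurka, a kinase of mitosis, had 2.5, 2.33 and 1.56 CPM in DE+PFD+RIC, against 3.42, 5.87 and 3.27 CPM in DE+RIC. Capn11, a calpain known from testis, was near 0 in DE+PFD+RIC, with 0.173, 0.063 and 0.36 CPM, against 5.62, 0.839 and 4.88 CPM in DE+RIC. The groups of these genes do not overlap because the rule asked for it, and each of the 24 had an adjusted p of 0.750 in edgeR's quasi-likelihood test.

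**Figure D3:**
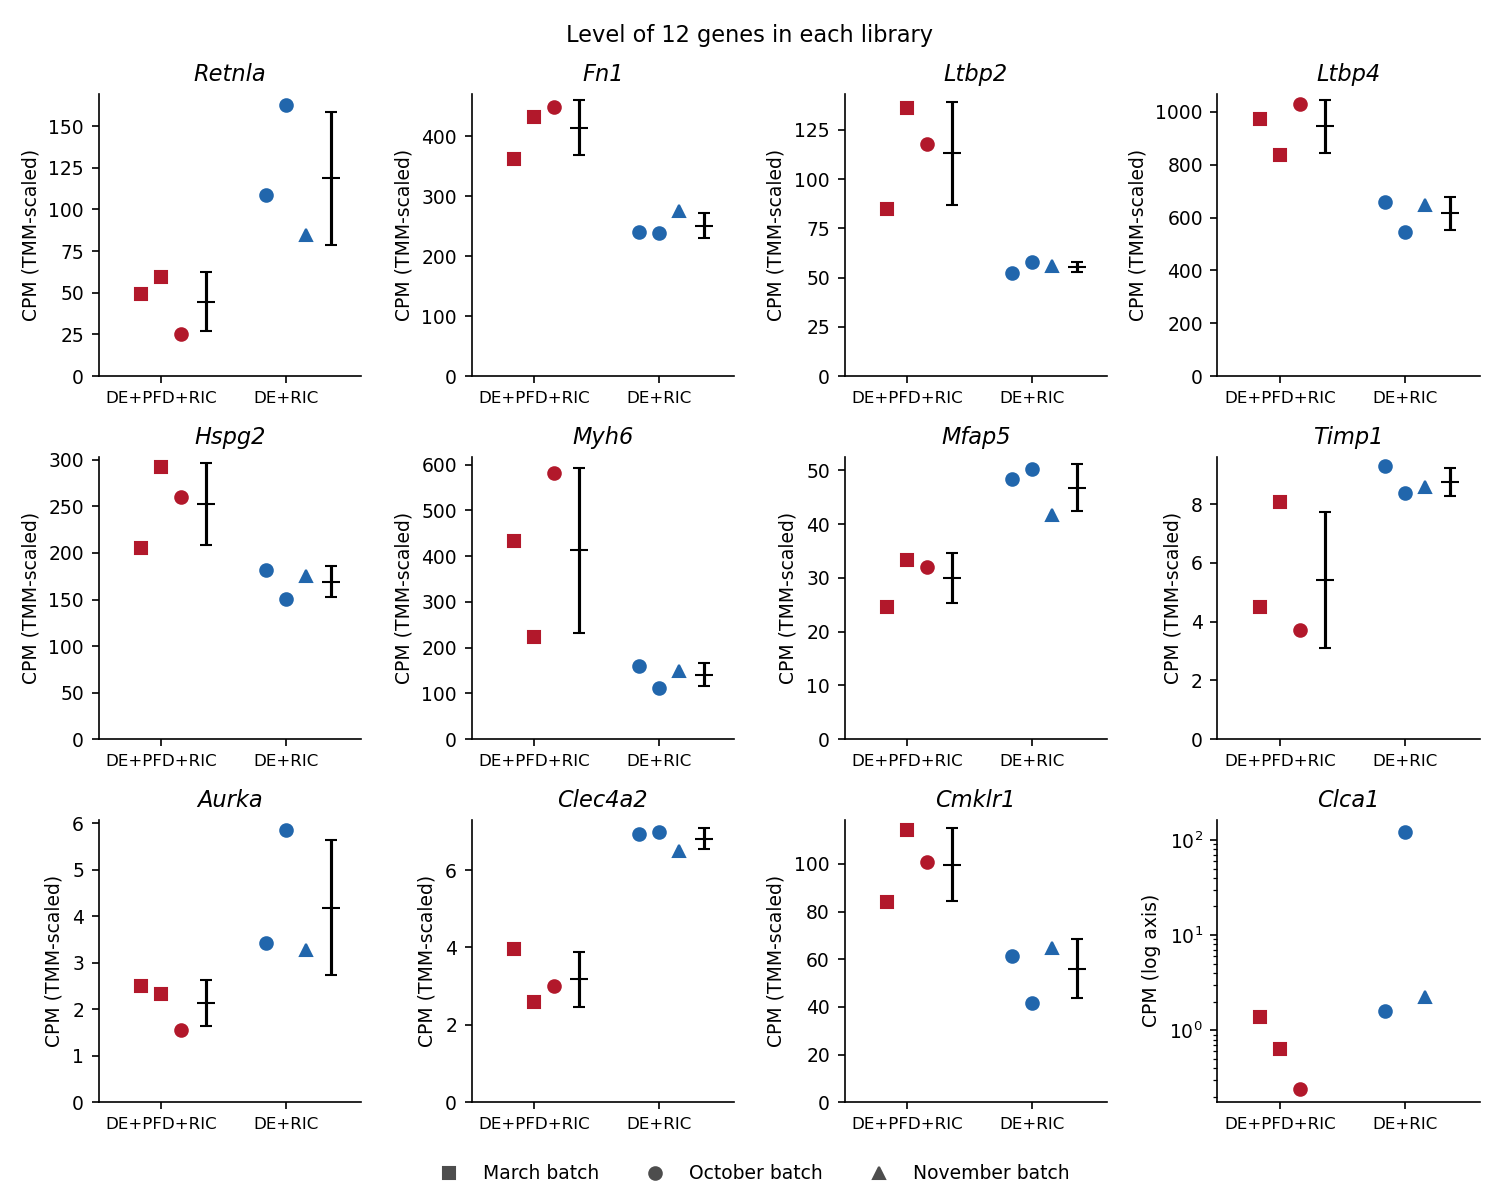
CPM of 12 genes in the 3 DE+PFD+RIC (left) and 3 DE+RIC (right) libraries, with marker shape for batch and a bar for mean and SD; the Clca1 axis is logarithmic and has no bar. Retnla, Mfap5, Timp1, Aurka and Clec4a2 lie lower in every DE+PFD+RIC library, and Clca1 is high in 1 DE+RIC library.

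An identifier without a symbol in the annotation used here, ENSMUSG00000127251, was the other gene DESeq2 called, at an adjusted p of 0.016. It had 58.2, 149.3 and 224.7 CPM in DE+PFD+RIC, against 29.5, 20.8 and 41.5 CPM in DE+RIC. The log2 fold change was 2.58 ± 0.55, and 3.13 within October. The DE+RIC libraries, at 20.8 to 41.5 CPM, lay below those of DE, at 71 to 137.9 CPM, and of C, at 96.2 to 134.8 CPM, and overlapped with RIC+DE+PFD, at 33.3 to 114.5 CPM. The gene was singled out after its values were seen.

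Matrix genes lay mostly higher in DE+PFD+RIC. Of 23 genes for fibrillar collagens and associated matrix, 19 had a fold change above 0, with a median log2 fold change of 0.49, against 51.4% and 0.01 for all genes tested. In 8 of the 23 the groups did not overlap on the higher side, where the share over all genes is 11.3%. In 1, Sparc, they did not overlap on the lower side, where that share is 8.73%. None passed the test. Unadjusted p-values were under 0.05 for 2, Fn1 and Col5a1, on the higher side, where the share over all genes is 2.78%. Of the 23 genes, 17 are in the longest of the 4 length bins, and the median was 0.35 after removal of the length trend, 0.25 within October and 0.29 without RIC+DE+PFD 1 and DE 1.

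Fn1 (ENSMUSG00000026193), which codes for fibronectin, had 362, 431 and 448 CPM in DE+PFD+RIC, against 239, 238 and 275 CPM in DE+RIC. Every DE+PFD+RIC library was above every DE+RIC library. The log2 fold change was 1.00 ± 0.38, with an unadjusted p of 0.0156 and an adjusted p of 0.750 in edgeR's quasi-likelihood test, and 0.77 after removal of the length trend. Fn1 averaged 246 ± 11.5 CPM in DE+PFD and 254 ± 33.9 CPM in DE (SD, n = 3 each), and ranged from 318 to 514 CPM in RIC+DE, conditioning before exhaust. Col5a1, a collagen that regulates fibril width, had 57.5, 79.2 and 77.4 CPM in DE+PFD+RIC, against 49.6, 47.5 and 44.4 CPM in DE+RIC.

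The main fibrillar collagens were less clear. Col1a1, a chain of type I collagen, had 241, 385 and 362 CPM in DE+PFD+RIC, against 282, 182 and 248 CPM in DE+RIC, and the groups overlapped. Its log2 fold change was 0.80 ± 0.47, and 0.37 ± 0.43 for Col3a1 of type III collagen, which overlapped too. After removal of the length trend they were 0.65 for Col1a1 and 0.16 for Col3a1. Col1a2, the partner chain of Col1a1, did not overlap, with 374, 508 and 494 CPM in DE+PFD+RIC, against 341, 340 and 322 CPM in DE+RIC. Hspg2, which codes for the basement membrane proteoglycan perlecan, had 205, 292 and 259.9 CPM in DE+PFD+RIC, against 182, 151 and 175 CPM in DE+RIC. Sparc, a collagen-binding matrix protein, ran the other way, with 1706, 1269 and 1535 CPM in DE+PFD+RIC, against 2023, 1853 and 1769.9 CPM in DE+RIC.

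Among genes of elastic fibres and TGF-beta, Ltbp2 and Ltbp4 of the latent TGF-beta binding proteins had unadjusted p-values under 0.05 on the higher side, while Ltbp1 had a log2 fold change of 0.13 ± 0.39 and overlapping groups. Ltbp2 (ENSMUSG00000002020), a component of elastic microfibrils, had 84.8, 136 and 118 CPM in DE+PFD+RIC, against 52.4, 57.9 and 55.8 CPM in DE+RIC. Its log2 fold change was 1.35 ± 0.47, with 1.16 after removal of the length trend and 1.08 within October. Ltbp4 (ENSMUSG00000040488), which holds latent TGF-beta in the matrix and is needed for elastic fibres, had 973, 836 and 1029 CPM in DE+PFD+RIC, against 658, 546 and 648 CPM in DE+RIC. The groups overlapped for neither gene. Ltbp4 had a log2 fold change of 1.12 ± 0.46, of 0.98 after removal of the length trend, of 0.62 without the batch term and of 0.76 within October. Mfap5, a glycoprotein of the same microfibrils, was lower, with 24.7, 33.3 and 32.1 CPM in DE+PFD+RIC, against 48.5, 50.2 and 41.8 CPM in DE+RIC. The whole list of 22 elastic fibre and crosslinking genes had a median of 0.18, and -0.10 within October.

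Of 21 TGF-beta pathway genes, 15 had a fold change above 0 and the median was 0.17, or 0.11 without RIC+DE+PFD 1 and DE 1. The groups did not overlap on the higher side for 8 of the 21, where the share over all genes is 11.3%. On that side 3 had an unadjusted p under 0.05, where the share over all genes is 2.78%: Ltbp4, Smad6 and Smad7. Smad6 and Smad7 are the inhibitory SMADs, induced by the pathway they restrain. Smad7 had 120.4, 95.4 and 91.7 CPM in DE+PFD+RIC, against 77.4, 65.7 and 82.9 CPM in DE+RIC, with a log2 fold change of 0.67 ± 0.30. Smad6 had 312, 237 and 247 CPM in DE+PFD+RIC, against 189, 208 and 184 CPM in DE+RIC, with 0.77 ± 0.35, and 0.30 within October. The ligand gene Tgfb1 overlapped, with 86.6, 89.2 and 113 CPM in DE+PFD+RIC, against 106, 77.6 and 94.9 CPM in DE+RIC. Ccn2, a classical target of the pathway, had a log2 fold change of -0.05 ± 0.36.

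Timp1, the inhibitor of matrix metalloproteinases, had 4.49, 8.05 and 3.73 CPM in DE+PFD+RIC, against 9.31, 8.38 and 8.57 CPM in DE+RIC. Its log2 fold change was -0.98 ± 0.44, and -0.59 after removal of the length trend. Acta2, the actin of smooth muscle and myofibroblasts, had 300, 291 and 284 CPM in DE+PFD+RIC, against 376, 518 and 330.4 CPM in DE+RIC. The groups overlapped for neither gene. The log2 fold change of Acta2 was -0.52 ± 0.44 with an unadjusted p of 0.247 in edgeR's quasi-likelihood test. After removal of the length trend it was -0.32. The 15 smooth muscle and myofibroblast markers and the 19 fibroblast markers both had medians of -0.08. Among the fibroblast markers Pdgfrb, a growth factor receptor of fibroblasts and pericytes, had a log2 fold change of 0.79 ± 0.30, and the groups overlapped.

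**Figure D4:**
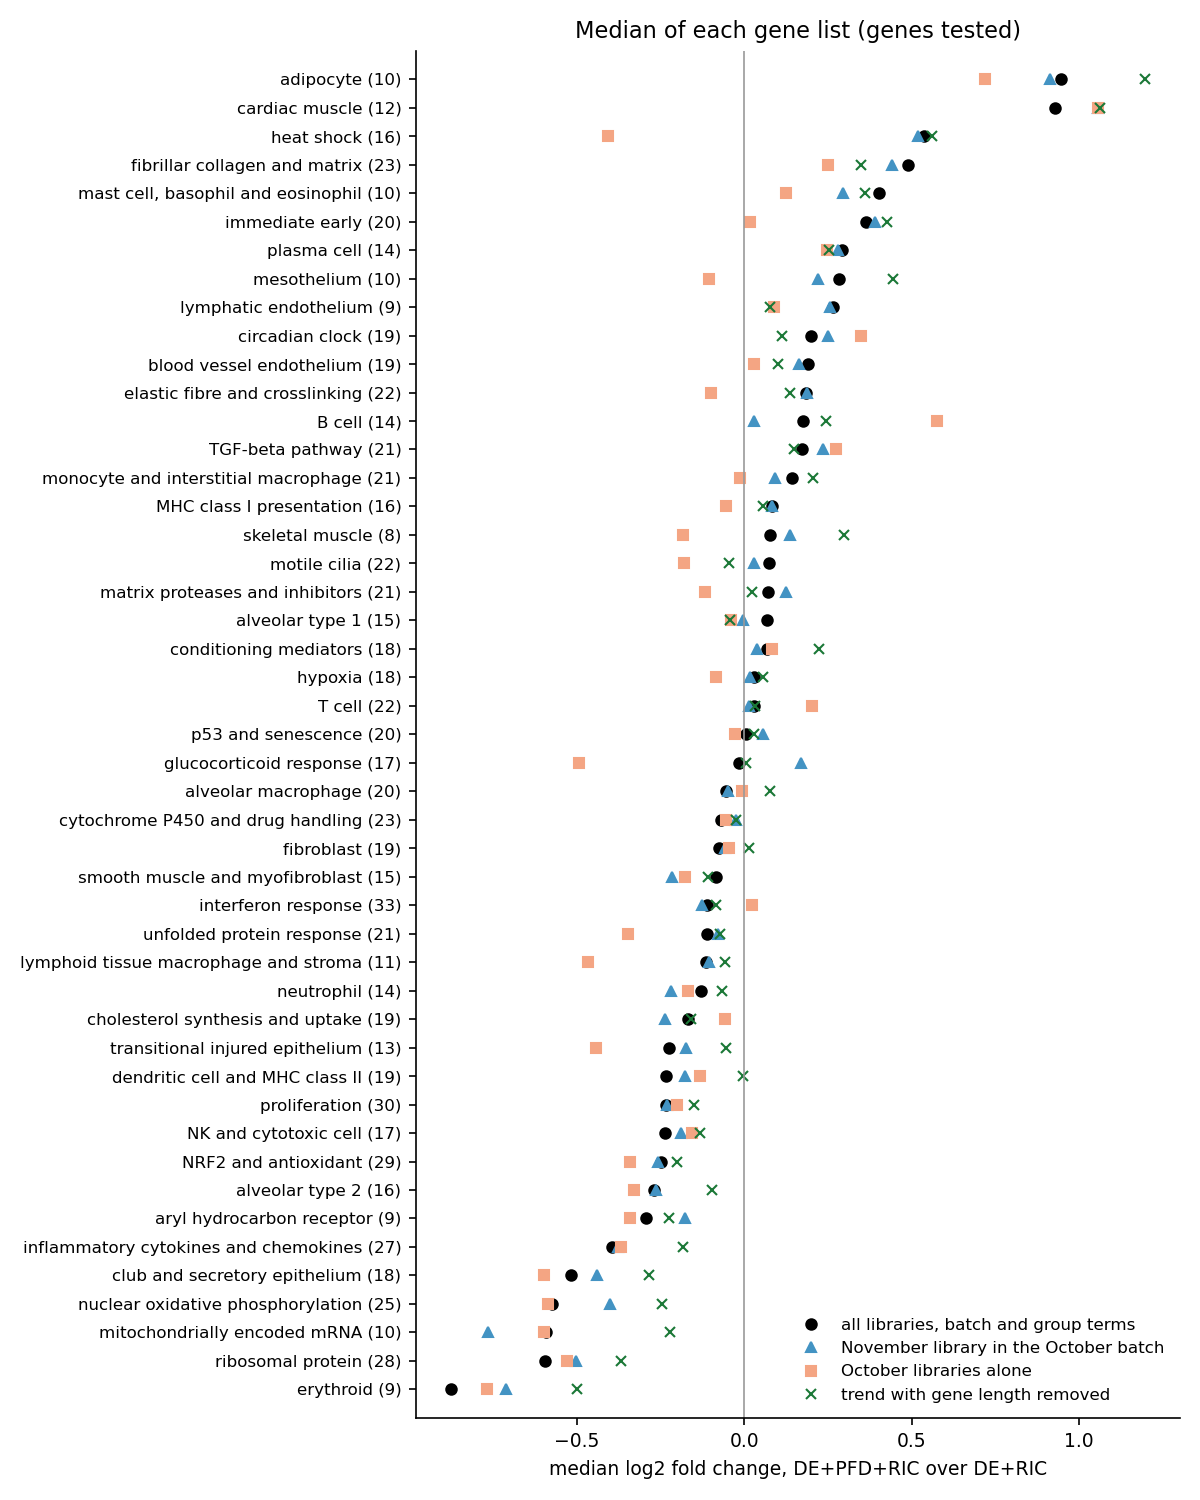
Median log2 fold change of DE+PFD+RIC over DE+RIC in 47 gene lists, with the number of genes tested in brackets, in the model of all libraries and in 3 other settings. The matrix list keeps a median above 0 in the 4 settings, from 0.25 to 0.49, and heat shock turns to -0.41 within October.

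Heart muscle markers had fold changes above 0 as a list, with high levels in DE+PFD+RIC 1 and 3 and not in 2. In mice the pulmonary veins carry a sheath of heart muscle cells inside the lung, and heart tissue can also be taken along at dissection. All 12 genes had a fold change above 0, with a median of 0.93, and of 1.06 both within October and after removal of the length trend. Their summed level was 1287, 605 and 1425 CPM in DE+PFD+RIC, against 627, 647 and 548 CPM in DE+RIC, and no marker was at 0 in any of the 6 libraries. DE+PFD+RIC 2 thus lay within the DE+RIC range by sum, and was the lowest of the 6 by the mean log2 level of the markers, which was 0.31, -1.11 and 0.36 in DE+PFD+RIC, against -0.74, -0.67 and -0.94 in DE+RIC, relative to all libraries. None of the 12 passed the test. Unadjusted p-values were under 0.05 for 3, Myh6, Tnnt2 and Ryr2, on the higher side, where the share over all genes is 2.78%. The groups did not overlap on the higher side for 4 of the 12, where that share is 11.3%. Myh6, the heavy chain of heart myosin, had 433, 223 and 582.5 CPM in DE+PFD+RIC, against 161, 112 and 149.5 CPM in DE+RIC, with a log2 fold change of 2.05 ± 0.72. It averaged 290 ± 75.9 CPM in DE+PFD and 397 ± 99.2 CPM in DE (SD, n = 3 each), and the DE+RIC libraries lay below all of these. Nppa, the atrial natriuretic peptide gene, had 83.1, 1.76 and 68.5 CPM in DE+PFD+RIC, against 25.5, 23.3 and 18.2 CPM in DE+RIC. In bulk tissue, fewer cells of a type and less RNA per cell cannot be told apart, here and in the lists below.

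Medians for markers of fat and B cells depended on single libraries. The 10 adipocyte markers all had fold changes above 0, with a median of 0.95, and none had an unadjusted p under 0.05. Their summed level was 638, 172 and 293 CPM in DE+PFD+RIC, against 157, 234 and 128 CPM in DE+RIC, and without DE+PFD+RIC 1 the median was 0.20. The 9 erythroid markers all had fold changes below 0, with a median of -0.88, of -0.50 after removal of the length trend, of -0.35 without the batch term and of -0.55 without RIC+DE+PFD 1 and DE 1. Their summed level was 4669.5, 2537 and 3442 CPM in DE+PFD+RIC, against 5402, 6645.5 and 4304 CPM in DE+RIC, and the groups overlapped. The alpha globin gene Hba-a2, whose reads its paralog may share, had a log2 fold change of -1.24 ± 0.48. B cell markers summed to 84, 267 and 509 CPM in DE+PFD+RIC, against 427, 283 and 418 CPM in DE+RIC, with DE+PFD+RIC 1 the lowest and DE+PFD+RIC 3 the highest of the 6. Their median was 0.17, and -0.44 without DE+PFD+RIC 3. The 22 T cell markers had a median of 0.03.

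Cytokine genes had fold changes on both sides of 0, and none passed the test. Of 27 cytokines and chemokines tested, 18 had a fold change below 0 and the median was -0.39, or -0.18 after removal of the length trend. The groups did not overlap for 4 on the higher side, Il12b, Csf1, Ccl20 and Cxcl1, and for 2 on the lower side, Il18 and Csf2, where the shares over all genes are 11.3% and 8.73%. Csf1, the growth factor of macrophages, had 71.3, 73.6 and 85.8 CPM in DE+PFD+RIC, against 57.3, 50.9 and 56.9 CPM in DE+RIC, with a log2 fold change of 0.60 ± 0.36. Unadjusted p-values were under 0.05 for 4, Ccl12, Il6, Ccl17 and Csf2, on the lower side, where the share over all genes is 2.14%. Csf2, which codes for the growth factor GM-CSF that alveolar macrophages need, had 2.07, 1.76 and 1.56 CPM in DE+PFD+RIC, against 4.04, 3.08 and 3.12 CPM in DE+RIC, and the groups did not overlap. Il6, the fever and acute-phase cytokine, had 0.431, 0.755 and 0.24 CPM in DE+PFD+RIC, against 0.615, 3.49 and 1.25 CPM in DE+RIC. Its log2 fold change of -2.11 ± 0.76 was -0.47 without DE+RIC 2. Ccl12 and Ccl17 were also highest in DE+RIC 2 and overlapped between the groups. Il1b had 12.9, 13.5 and 39.9 CPM in DE+PFD+RIC, against 42.9, 34.8 and 38.1 CPM in DE+RIC, and Tnf and Ccl2 had log2 fold changes of 0.31 ± 0.64 and -0.39 ± 0.57.

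Macrophage lists stayed near 0, with medians of -0.05 for 20 alveolar macrophage markers, which turned to 0.09 without RIC+DE+PFD 1 and DE 1, and 0.14 for 21 monocyte and interstitial macrophage markers. The 14 neutrophil markers had a median of -0.13, and the 33 interferon response genes -0.11. Natural killer and cytotoxic cell markers had a median of -0.24 over 17 genes. Of 30 proliferation genes, 19 had a fold change below 0 and the median was -0.23. Aurka, Ccna2 and Kif20a had an unadjusted p under 0.05, all lower, where the share over all genes is 2.14%. DE+RIC 2 had the highest level of each. Of the 30, 2 did not overlap on the higher side and 2 on the lower, where the shares over all genes are 11.3% and 8.73%. Mki67, the marker of dividing cells, had a log2 fold change of 0.15 ± 0.40, with every DE+PFD+RIC library above every DE+RIC library.

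Among genes of the response to exhaust, the NRF2 and antioxidant list was mostly below 0 in fold change. Of its 29 genes, 22 had a fold change below 0, with a median of -0.25, or -0.10 without the batch term. Unadjusted p-values were under 0.05 for 4, all lower, where the share over all genes is 2.14%: Gsta2, Gsta4, Txn1 and Gpx2. The groups did not overlap for 3 on the higher and 4 on the lower side, where the shares over all genes are 11.3% and 8.73%. By sum DE+PFD+RIC 1 was the highest library, with 12632 CPM. Gsta4, a glutathione transferase for products of lipid oxidation, had 123, 74 and 83.3 CPM in DE+PFD+RIC, against 131, 146 and 107 CPM in DE+RIC, and the groups overlapped. Gsta2 had a log2 fold change of -1.18 ± 0.45, and of -0.26 without the batch term. Nqo1, a quinone reductase, had 8.02, 7.11 and 6.97 CPM in DE+PFD+RIC, against 9.75, 8.11 and 8.78 CPM in DE+RIC. Cyp1a1, the enzyme that the aryl hydrocarbon receptor induces in response to combustion products, had 8.63, 6.04 and 3.36 CPM in DE+PFD+RIC, against 4.21, 5.03 and 3.12 CPM in DE+RIC, and a log2 fold change of -1.63 ± 1.44. Its sign turned to 0.59 without the batch term. Cyp1a1 stood at 153, 294 and 137 CPM in C 1, DE+PFD 1 and RIC+DE 3, all March libraries. It stood at 1.16 to 8.63 CPM in the other March libraries. The part of these libraries in the fold change was not tested. Of 9 aryl hydrocarbon receptor genes tested, 5 had a fold change below 0, with a median of -0.29, or 0.10 without the batch term. Hmox1, for heme oxygenase, had a log2 fold change of 0.10 ± 0.29.

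Heat shock genes were highest in DE+PFD+RIC 1, and by sum DE+PFD+RIC 2 also lay above every DE+RIC library. DE+PFD+RIC 3 had the lowest sum. DE+PFD+RIC 1 and 2 are March libraries and DE+PFD+RIC 3 is an October library. Hspa1a, the inducible HSP70 chaperone, had 484, 137 and 55.4 CPM in DE+PFD+RIC, against 57.5, 61.2 and 56.6 CPM in DE+RIC. The 16 genes of the list summed to 14586, 6777 and 3867 CPM in DE+PFD+RIC, against 4873, 5429 and 4892 CPM in DE+RIC. Their median log2 fold change was 0.54, and -0.41 within October. It was 0.07 without DE+PFD+RIC 1 and 0.30 without RIC+DE+PFD 1 and DE 1. Bag3, a co-chaperone of HSP70, was the member with an unadjusted p under 0.05, with 228, 117 and 93.2 CPM in DE+PFD+RIC, against 71.2, 80.1 and 68.3 CPM in DE+RIC. Its log2 fold change was 1.13 ± 0.44, and 0.29 within October.

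The libraries carried the lung epithelium that the label names. Sftpc, the surfactant protein of alveolar type 2 cells, had 22720, 14238 and 17049 CPM in DE+PFD+RIC, against 28386, 25478 and 23764 CPM in DE+RIC. Scgb1a1, the secretoglobin of club cells, had 39226, 24599 and 24665 CPM in DE+PFD+RIC, against 42463, 46379 and 37333 CPM in DE+RIC, and overlapped. Of 18 club and secretory genes, 14 had a fold change below 0 and the median was -0.52, or -0.28 after removal of the length trend and -0.11 without the batch term. Cbr2, a carbonyl reductase of club cells, did not overlap, with 5116, 3992 and 4893 CPM in DE+PFD+RIC, against 7106, 7446 and 6289.5 CPM in DE+RIC. The 16 type 2 markers had a median of -0.27 and the 15 type 1 markers 0.07. Rsph1, a radial spoke protein of motile cilia, had a log2 fold change of -0.79 ± 0.28, and of -0.46 after removal of the length trend. The 22 cilia genes had a median of 0.07, which turned to -0.16 without RIC+DE+PFD 1 and DE 1.

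Lists of short, abundant genes had fold changes mostly below 0, while their summed levels overlapped between DE+PFD+RIC and DE+RIC. All 28 ribosomal protein genes had fold changes below 0, with a median of -0.59, and -0.37 after removal of the length trend. Of 25 nuclear genes of oxidative phosphorylation, 24 were below 0, with medians of -0.57 and -0.25 in the same order, and the 10 mitochondrially encoded mRNAs had -0.59 and -0.22. Without RIC+DE+PFD 1 and DE 1 the medians were -0.23 for ribosomal protein genes, -0.20 for nuclear oxidative phosphorylation and -0.38 for mitochondrial mRNAs. Of these lists 16, 17 and 10 genes belong to the shortest of the 4 length bins. Their part in the length trend was not tested, and none of these genes passed the test or had an unadjusted p under 0.05 in edgeR's quasi-likelihood test. Ribosomal protein genes summed to 22138, 10497 and 15074 CPM in DE+PFD+RIC, against 20173, 22448 and 17494 CPM in DE+RIC, with DE+PFD+RIC 1 within the DE+RIC range. Nuclear oxidative phosphorylation genes summed to 4219, 2575 and 3140 CPM in DE+PFD+RIC, against 3914, 4377 and 3390 CPM in DE+RIC. Mitochondrial mRNAs summed to 18617, 13325 and 12879.5 CPM in DE+PFD+RIC, against 16158, 18328 and 21637 CPM in DE+RIC. DE+PFD+RIC 1 lay within the DE+RIC range for these lists too.

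**Figure D5:**
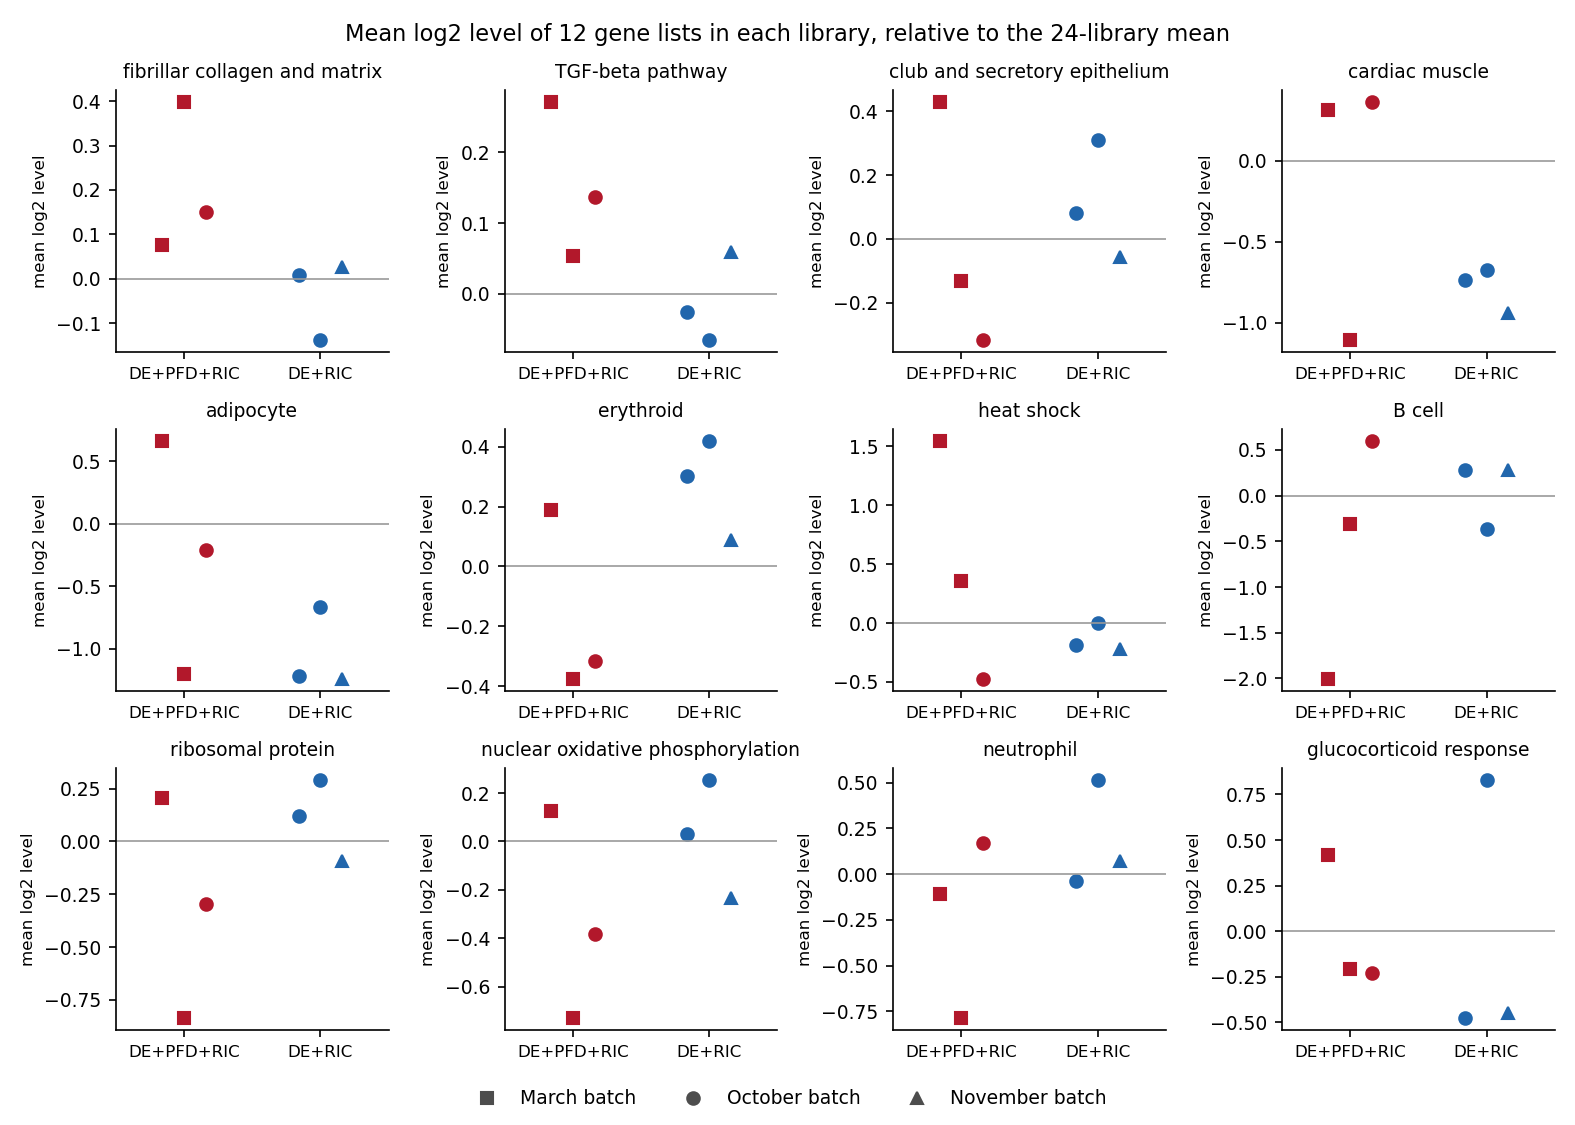
Mean log2 level of 12 gene lists in the 3 DE+PFD+RIC (left) and 3 DE+RIC (right) libraries, relative to the mean of the 24 libraries, with marker shape for batch. The matrix list lies at 0.08 to 0.40 in DE+PFD+RIC and -0.14 to 0.03 in DE+RIC; heat shock is high and B cell markers are low in DE+PFD+RIC 1.

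The same drug difference without conditioning, DE+PFD minus DE, was subtracted in the same model. Batch is uneven there too: DE+PFD 1 is a March library, while DE+PFD 2 and 3 and all DE libraries are October. No gene was called for the difference between the pirfenidone differences with and without perconditioning by edgeR's quasi-likelihood test with Benjamini-Hochberg adjustment. Unadjusted p-values were under 0.05 for 470 genes (2.69%), DESeq2 called 8 genes and limma 0. The 4 genes with a symbol and the smallest p were Capn11, Retnla, Pla2g2d and Derl3. Retnla had a log2 fold change of -2.39 with perconditioning and of 0.14 without it, and the difference was -2.54 ± 0.59, with an unadjusted p of 0.000358 and an adjusted p of 1 in edgeR's quasi-likelihood test. Without conditioning, Retnla had 66.5, 69.3 and 65.7 CPM in DE+PFD, against 47.1, 57.5 and 45.2 CPM in DE.

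Pla2g2d, a secreted phospholipase of lymphoid tissue macrophages and dendritic cells, differed through the DE mice. It had 1.9, 3.9 and 3.12 CPM in DE+PFD+RIC, 2.55, 2.52 and 3.06 CPM in DE+RIC, 4.24, 2.41 and 3.15 CPM in DE+PFD, and 54, 4.48 and 28.7 CPM in DE. Plin1, the coat protein of lipid droplets, had 36.7, 14.4 and 23.9 CPM in DE+PFD, against 155, 9.7 and 37.8 CPM in DE. DE library 1, which stood apart, was the highest of the 6 for Pla2g2d and Plin1. For the matrix list the median was 0.49 with perconditioning and 0.09 for DE+PFD minus DE. Fn1 had a log2 difference of 0.93 ± 0.47 between both drug comparisons and Ltbp2 1.16 ± 0.57, neither with an unadjusted p under 0.05 in edgeR's quasi-likelihood test.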

How the data were processed

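Libraries were made from oligo(dT)-captured mRNA of lung, per the labels' protocols. The submitters' processing notes name FastQC 0.12.1, fastp 0.23.4, STAR 2.7.11b and featureCounts, with build GRCm39. The authors deposited raw counts for 78275 genes in 24 libraries. No source used here gives the annotation release or strand setting, which leaves antisense and overlapping genes and close paralogs uncertain. Symbols and exon lengths came from a GRCm38 annotation by gene identifier, and 51486 genes matched, with 98.4% of counts.

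All 24 libraries entered edgeR 4.0.16 (R 4.3.3): filterByExpr, TMM, quasi-likelihood, terms for batch and group, Benjamini-Hochberg over 17490 genes, threshold 0.05. Alternatives were DESeq2 1.42.0, limma 3.58.1 (voom with quality weights), other filters, scalings and batch codings, October alone, the replicate block and leaving out singly each library of the groups compared. Removal of a loess trend on exon length (span 0.5) was chosen after the data were seen. The model was tested on simulated data. Within DE+PFD+RIC and within DE+RIC no libraries were copies: chi-square per gene was 9.47 to 69.5. Other pairs of libraries were not checked.

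Members and the 47 lists were chosen with earlier results of these data known. Named genes were the 12 a direction with the smallest p whose libraries did not overlap, at a mean of 1 CPM or more, leaving out predicted genes, pseudogenes, antisense genes and antigen receptor segments. To these came 16 readout genes, 2 genes a list and the 4 smallest p of the difference between drug comparisons. The text prints a part, and 1 of the 12 higher genes is not reported here.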

Additional observations from a re-analysis of the deposited data

How the results depend on the processing

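The count of 0 called genes between DE+PFD+RIC and DE+RIC became 2 with DESeq2, 71 with no filter on low counts and 1 within October, and stayed 0 in the other planned settings. For the difference between the drug comparisons it became 8 with DESeq2, 164 with no filter and 1 within October, and ranged from 0 to 2 when single libraries were left out, with Pla2g2d and Cd209b called without DE replicate 2. With no filter the median prior degrees of freedom in edgeR was infinite, and a gene at that median had no weight given to its own spread. The quasi-likelihood dispersion of Clca1 was then 0.772 in place of 19.1, and that of Retnla 0.771 in place of 2.09. Genes with an unadjusted p under 0.05 numbered 862, from 231 without DE+RIC 2 to 1274 without DE+PFD+RIC 1 when single libraries were left out, 2378 within October, 2307 with no filter, 2267 with the compared groups alone and 1943 with limma. Same-numbered libraries did not deviate together, with correlations of -0.13, -0.18 and 0.09, so the numbers were not taken as pairs. With the replicate block, 0 genes were called with the batch term and 0 without it, and 1027 and 914 had an unadjusted p under 0.05; the median of mitochondrial mRNAs was -0.21 with block and batch. Of 2447 other values of 129 genes, 31 changed sign, and 117 genes had no sign change. Of 893 other medians of 47 lists, 106 changed sign.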
